A study of Mus musculus with 2 samples.

Results

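The genes described here are the translation initiation and elongation factors of mouse macrophages, taken as every symbol of the gene table that starts with Eif or Eef and a digit, without the eIF2 kinases (Eif2ak) and without pseudogene symbols ending in -ps. This gave 68 of 34714 genes. The set was chosen by measured values: Eif4e had been seen above 2-fold between the same libraries, so the values below describe that comparison and test nothing. Bone marrow cells of C57BL/6 mice were grown into macrophages with 20 ng/mL macrophage colony-stimulating factor. They were then exposed for 24 h to FGK45, a monoclonal antibody that engages the receptor CD40, or to IgG. Each group held 1 RNA-seq library, and the labels do not say whether a library came from a single animal or a pool. No difference below therefore has a replicate check, and no p-value was computed.

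Translation of most mRNAs starts when eIF4E binds the 5′ cap and, with the scaffold eIF4G and the helicase eIF4A, recruits a small ribosomal subunit that carries eIF3, eIF1, eIF1A, eIF5 and the initiator tRNA bound to eIF2. The 4E-binding proteins compete with eIF4G for eIF4E until the kinase mTORC1 phosphorylates them, and eIF2B recharges eIF2 with GTP after each round. In elongation, eEF1A delivers aminoacyl-tRNAs, the eEF1B subunits reload it with GTP, and eEF2 moves the ribosome by a codon. In activated macrophages, phosphorylation of eIF4E and of the 4E-binding proteins is known to affect which cytokine mRNAs are translated. mRNA levels, the quantity measured here, do not report phosphorylation.

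Levels are in FPKM, fragments scaled by transcript length and library size. If a step in the deposited values is 1 aligned base, the steps imply about 6.16 gigabases of aligned sequence for anti-CD40 and 5.58 for IgG. That reading of a step was assumed, and the estimated fragments scale with it. Differences are log2 ratios of (FPKM + 1), anti-CD40 over IgG, and folds are ratios of the FPKM values themselves. Intervals on folds are 95% exact conditional binomial intervals on estimated fragments and cover counting error only. Over the 9591 genes at 1 FPKM or more in at least 1 library, the median log2 ratio was 0.12. The median fold of all genes was 1.11, taken over the 9101 at 1 FPKM or more in both libraries. Genes are therefore called higher or lower relative to these medians, a rule for the direction only. Fold sizes and 2-fold calls compare the values as deposited, with the median left in unless stated. Measured from the median, sizes on the higher side would be smaller and those on the lower side larger. All 8 macrophage markers listed were at 1 FPKM or more, with Csf1r at 333 FPKM in both libraries, and Cd68 had 991 FPKM with anti-CD40 and 894 FPKM with IgG. Of the 4 T cell markers, Cd3e, Cd3d and Cd8a were listed at 0 in both, and Cd4 had 3.94 FPKM with anti-CD40 and 3.04 FPKM with IgG. The 4 neutrophil markers summed to 1.87 FPKM with anti-CD40 and 1.11 FPKM with IgG, nearly all of it S100a8, with Ly6g and S100a9 listed at 0. The 3 markers each of B cells, fibroblasts and erythroid cells had low sums, 0.617, 0.53 and 1.21 FPKM with anti-CD40 and 0.267, 0.184 and 3.07 FPKM with IgG. The 3 dendritic cell markers summed to 16.7 FPKM with anti-CD40 and 18.9 FPKM with IgG, nearly all of it Itgax, with Flt3 listed at 0. All 3 megakaryocyte markers reached 1 FPKM. Pf4 had 16.4 FPKM with anti-CD40 and 10.5 FPKM with IgG, Itga2b had 7.77 FPKM with anti-CD40 and 8.29 FPKM with IgG, and Gp1bb had 1.28 FPKM with anti-CD40 and 2.14 FPKM with IgG. The part of such cells in the values below was not tested.

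Eif4e, the gene of the cap-binding protein, had the highest ratio of all members, and Eif4ebp1, the gene of its main repressor, had the lowest. The median of the members was close to that of all genes. Of the 68 members, 61 reached 1 FPKM in at least 1 library. Their median log2 ratio was 0.14, with quartiles at -0.16 and 0.30, against 0.12 with quartiles at -0.06 and 0.27 over all 9591 genes. The median of all genes parted the 61 into 31 members above and 30 below. One member, Eif4e, was at least 2-fold higher with anti-CD40, where 0.25% of all genes were, and 0 were at least 2-fold lower, where 0.313% were. The nearest member outside 2-fold on the higher side was Eef1e1, at a log2 ratio of 0.57, and on the lower side Eif4ebp1, at -0.74. At 1.5-fold from the all-gene median, 1 member lay above, again Eif4e (1.23% of all genes did). On the lower side 5 did (4.23% of all genes did), namely Eif4ebp1, Eef1d, Eif3f, Eif2b2 and Eif3d. In bulk RNA, fewer cells that use a gene and less of its RNA per cell cannot be told apart.

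**Figure D1:**
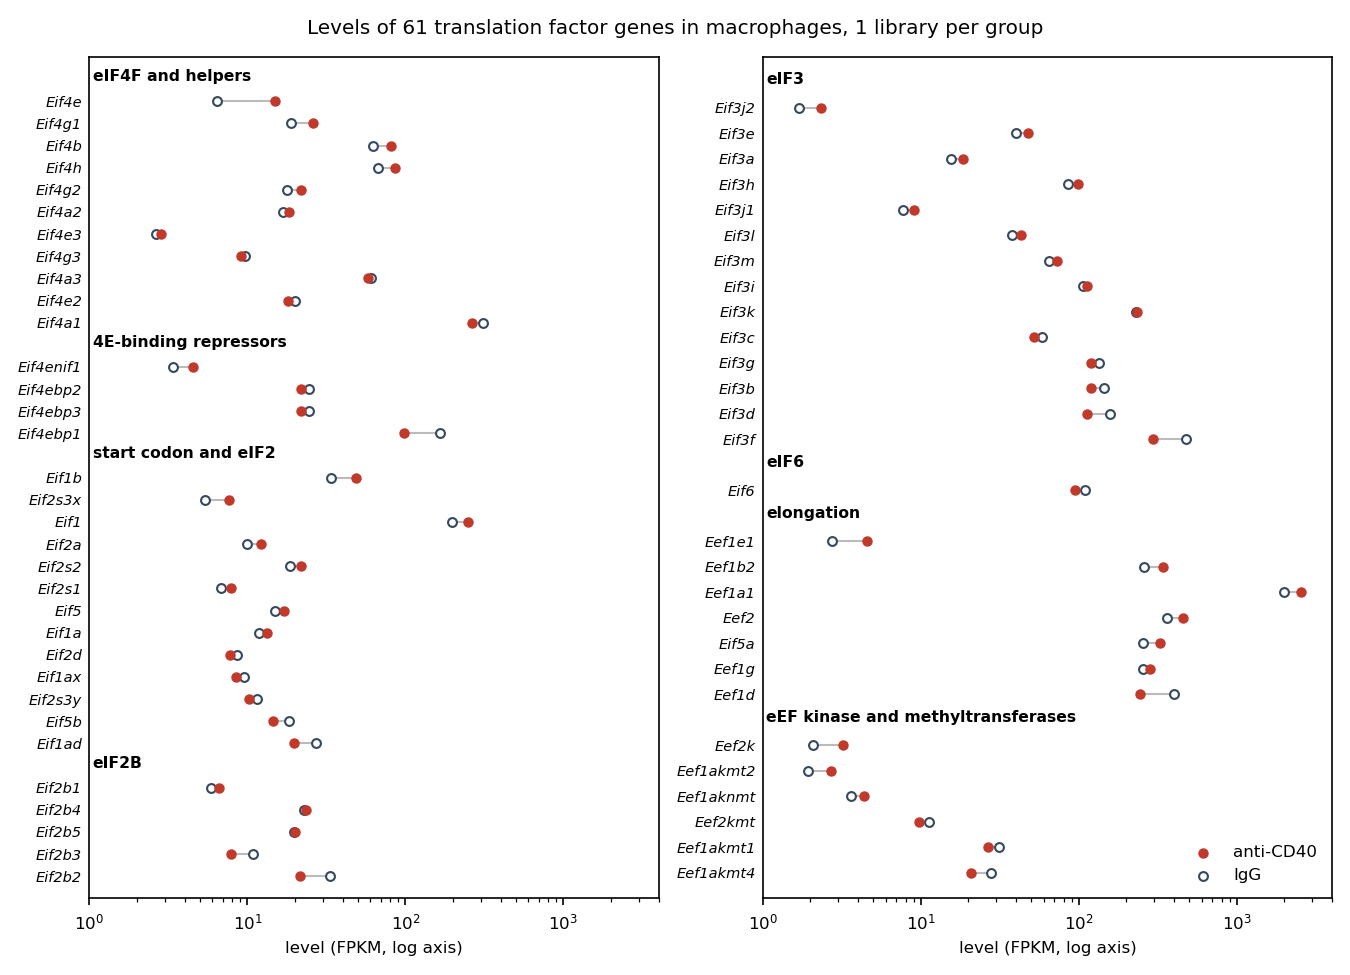
Levels in FPKM (log axis) of the 61 translation factor genes at 1 FPKM or more, by role, with filled points for the anti-CD40 library and open points for the IgG library (1 library each). Eef1a1 is the most abundant, at 2555 FPKM with anti-CD40 and 1994 FPKM with IgG, and the widest gap is that of Eif4e, at 14.9 FPKM with anti-CD40 and 6.38 FPKM with IgG.

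Counting error was small for most members, since the median member had about 1090 fragments in the anti-CD40 library and 1023 in the IgG library, against 410 and 331 over all genes. The interval of the fold lay wholly above the median fold of all genes for 17 members, a call that 20.4% of 9453 genes with a known length met. It lay wholly below for 25 members, a call that 25.2% met, and held the median for 19. The members rested on more fragments than most genes, so their intervals were narrower than most. The spread between cultures of the same kind is not known.

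**Figure D2:**
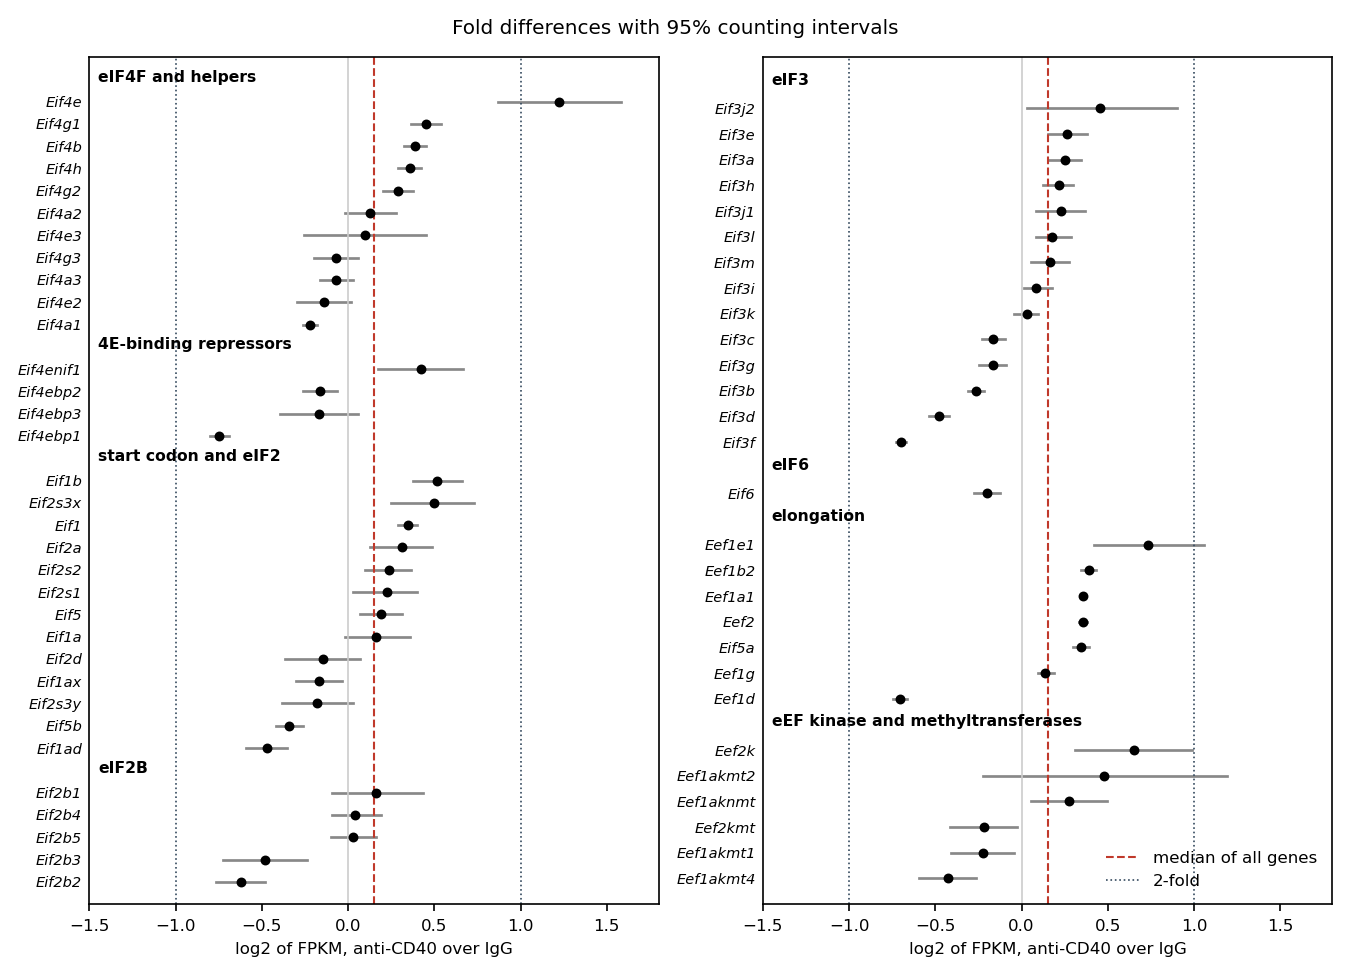
Fold of FPKM, anti-CD40 over IgG, on a log2 axis for the same 61 genes, with points for the fold and lines for the 95% counting interval. The dashed line is the median fold of all genes (1.11) and the dotted lines are 2-fold; the point of Eif4e lies past 2-fold, and Eif4ebp1, Eef1d and Eif3f lie farthest to the lower side.

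Eif4e (chromosome 3, 138526191 to 138559696, GRCm38) had 14.9 FPKM in the anti-CD40 library, against 6.38 FPKM in the IgG library, or about 242 fragments for anti-CD40 and 94 for IgG. The fold was 2.33 (interval 1.83 to 2.99), and the log2 ratio of 1.10 was the 14th highest of 9591. The 2-fold call is narrow. With all ratios centred on the median of all genes the log2 ratio of Eif4e was 0.98, and after upper-quartile scaling it was 0.999, so that 0 members reached 2-fold under either. A pseudocount of 5 in place of 1 gave 0.80. A processed pseudogene matches 651 bases of its coding sequence at 98.62% identity, and how the counting treated such copies is not given in the sources used here.

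Eif4e belongs to a small family whose other genes lay near or below the median of all genes. Eif4e2, which encodes a cap-binding protein that does not bind eIF4G well and acts in repression, had 18.2 FPKM with anti-CD40 and 20.0 FPKM with IgG. Eif4e3 had 2.85 FPKM with anti-CD40 and 2.65 FPKM with IgG, a direction that turns once the median is subtracted, and the oocyte form Eif4e1b was listed at 0 in both. In the IgG library Eif4e2 was thus the most abundant of the cap-binding genes per length. In the anti-CD40 library Eif4e and Eif4e2 were closer, at 14.9 FPKM for Eif4e and 18.2 FPKM for Eif4e2.

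The 4E-binding repressors were mostly lower. Eif4ebp1, the repressor most abundant in these macrophages (chromosome 8, 27260327 to 27275656), had 98.6 FPKM in the anti-CD40 library, against 165.4 FPKM in the IgG library. It had the lowest log2 ratio of all members, -0.74, the 95th lowest of 9591 genes, and the fold was 0.596 (interval 0.573 to 0.620). Eif4ebp2 had 21.9 FPKM with anti-CD40 and 24.5 FPKM with IgG, and Eif4ebp3 had 21.8 FPKM with anti-CD40 and 24.5 FPKM with IgG. A processed pseudogene matches 354 bases of the Eif4ebp1 coding sequence at 93.22% identity. Another protein-coding gene matches 203 bases of the Eif4ebp3 coding sequence at 100% identity. Any misassignment of reads was not tested for either. The fourth gene of the group, Eif4enif1, whose product 4E-T carries eIF4E into the nucleus and to granules of stored mRNA, lay on the other side with 4.55 FPKM in the anti-CD40 library and 3.4 FPKM in the IgG library (1.34-fold, interval 1.13 to 1.59). The 3 binding proteins summed to 142.3 FPKM with anti-CD40 and 214.5 FPKM with IgG. Per length, Eif4ebp1 was 6.63 times as abundant as Eif4e with anti-CD40 and 25.9 times with IgG. These genes had the lowest and the highest log2 ratio of all members, and Eif4e was named in the choice of the set. The gap between 6.63 and 25.9 therefore adds nothing to their separate values.

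**Figure D3:**
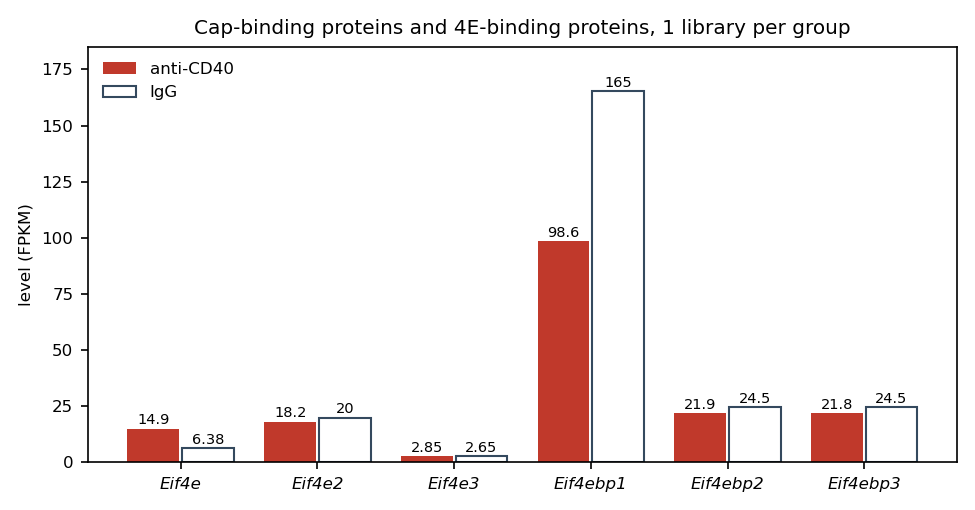
Levels in FPKM (linear axis from 0) of the genes of cap-binding proteins and of 4E-binding proteins, with filled bars for the anti-CD40 library and open bars for the IgG library (1 library each, so no error bars). Eif4e is higher and Eif4ebp1 lower with anti-CD40, while the other 4 genes differ by less than 1.5-fold.

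The partners of eIF4E in the cap-binding complex had ratios nearer to the median. Eif4g1, the main scaffold, had 25.9 FPKM with anti-CD40 and 18.8 FPKM with IgG, 1.37-fold higher (interval 1.29 to 1.45). Eif4b and Eif4h, whose products stimulate the helicase eIF4A, lay on the same side. Eif4b had 81.5 FPKM with anti-CD40 and 62.5 FPKM with IgG, and Eif4h had 85.9 FPKM with anti-CD40 and 67.2 FPKM with IgG. Of the other scaffolds, Eif4g2, which lacks the eIF4E binding site, had 21.8 FPKM with anti-CD40 and 17.9 FPKM with IgG, and Eif4g3 had 9.17 FPKM with anti-CD40 and 9.63 FPKM with IgG. Of the helicase paralogs, Eif4a1, the most abundant gene of the complex, was lower with anti-CD40 at 264 FPKM against 307.7 FPKM with IgG, a fold of 0.858 (interval 0.834 to 0.882). Eif4a2 had 18.3 FPKM with anti-CD40 and 16.7 FPKM with IgG, a log2 ratio of 0.12, at the median of all genes. Eif4a3, a core protein of the exon junction complex, had 58.0 FPKM with anti-CD40 and 60.8 FPKM with IgG. Eif4a1 has 3 pseudogene copies above 90% identity, 1 of them at 99.92%, and any misassignment of its reads was not tested.

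The hexamer CACGTG, the E-box letters that MYC and related factors bind, occurs before the starts of several of these genes. Both strands were searched, for this and for the other motifs, in the 250 bases before each annotated start (CACGTG reads alike on both strands) in RefSeq's GRCm38.p6 promoters, which covered 52 members. Of the 47 members with a window and at 1 FPKM or more, 12 held the hexamer (25.5%), against 10.6% of 7864 such genes. Sequences are shown for the 4 genes of the cap-binding complex that held it and for Eif1b, Eef2 and Eif3f of other groups, so that the flanks can be compared. Capitals mark the hexamer, the strand is that of the gene, and each line is 30 bases.
Eif4e distal, chr3:138527028-138527057, plus strand: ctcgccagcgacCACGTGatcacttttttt
Eif4e proximal, chr3:138527192-138527221, plus strand: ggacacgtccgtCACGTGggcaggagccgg
Eif4g1, chr16:20672661-20672690, plus strand: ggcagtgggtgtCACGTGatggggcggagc
Eif4h, chr5:134639488-134639517, minus strand: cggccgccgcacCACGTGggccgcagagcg
Eif4a1, chr11:69672595-69672624, minus strand: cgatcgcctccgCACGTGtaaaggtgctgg
Eif1b, chr9:120492570-120492599, plus strand: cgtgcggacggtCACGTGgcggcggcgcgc
Eef2, chr10:81176576-81176605, plus strand: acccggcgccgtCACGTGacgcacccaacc
Eif3f, chr7:108934335-108934364, plus strand: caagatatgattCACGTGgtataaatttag
The hexamers of Eif4e begin 228 and 64 bases before 1 of its 2 annotated starts, at 138527268, and lie downstream of the other, at 138526191.

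The 12 members with the hexamer had log2 ratios from -0.70 (Eif3f) to 1.10 (Eif4e), with a median of 0.35, and 8 exceeded the all-gene median. The 35 members with a window but no hexamer had a median of 0.12, and 17 exceeded the all-gene median. The same split over all genes was not computed, so these medians have no background. The 12 also include Eif4e, which was named for its fold when the set was chosen. The hexamer occurred both in members that were higher and in members that were lower. A match in sequence is not a measurement of binding, and any part of MYC in these ratios was not tested. Myc itself had 6.25 FPKM with anti-CD40 and 5.09 FPKM with IgG (1.23-fold, interval 1.01 to 1.51). That interval held the median fold of all genes, 1.11. Of other motifs, TGACGTCA, the cyclic AMP response element, was in 0 of the 47 members, against 3.06% of genes at 1 FPKM or more. TGANTCA, the AP-1 site, was in 3 members (6.38%), against 5.39% of genes. The NF-kB motif was in 2 members (4.26%), against 10.5% of genes, and TATAAA in 5 members (10.6%), against 7.52% of genes. Eef1a1 and Eef2k were the members with the NF-kB motif.

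**Figure D4:**
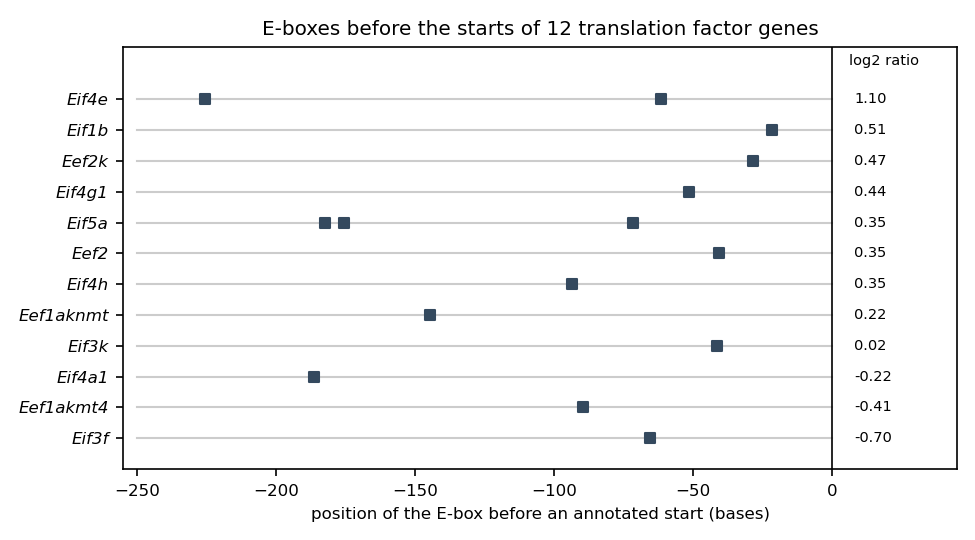
Positions in bases of the hexamer before annotated starts (0) in the 12 translation factor genes that hold it and reached 1 FPKM; squares are matches, and the log2 ratio of each gene, anti-CD40 over IgG, is printed at the right. Genes run from the highest ratio (Eif4e, 1.10) to the lowest (Eif3f, -0.70), and the position does not sort them.

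Start codon recognition and the initiator tRNA complex were represented by 13 genes, all at 1 FPKM or more, with a median of 0.18 and 8 above the all-gene median. Eif1b, a paralog of the start codon fidelity factor Eif1, had 48.7 FPKM in the anti-CD40 library, against 34.0 FPKM in the IgG library, 1.43-fold higher (interval 1.30 to 1.58). Eif1, the most abundant of the group, had 250.4 FPKM with anti-CD40 and 197.6 FPKM with IgG, a value that 20 pseudogene copies above 90% identity make uncertain. The paralogs that encode eIF1A lay on either side of the median: Eif1a had 13.3 FPKM with anti-CD40 and 11.8 FPKM with IgG, and Eif1ax had 8.42 FPKM with anti-CD40 and 9.46 FPKM with IgG. Among the 3 subunits of eIF2, the gamma subunit comes from an X-linked and a Y-linked gene that lay on opposite sides. Eif2s3x had 7.64 FPKM in the anti-CD40 library and 5.42 FPKM in the IgG library (1.41-fold, interval 1.19 to 1.66), whereas Eif2s3y had 10.2 FPKM with anti-CD40 and 11.5 FPKM with IgG (a fold of 0.884, interval 0.766 to 1.02). Eif2s3x has a pseudogene copy that is identical over 1347 aligned bases. Of the other subunits, Eif2s1 (alpha) had 7.89 FPKM with anti-CD40 and 6.77 FPKM with IgG, and Eif2s2 (beta) had 21.9 FPKM with anti-CD40 and 18.6 FPKM with IgG. Eif5, which triggers GTP hydrolysis by eIF2, and Eif2a, an initiator tRNA carrier apart from eIF2, had log2 ratios of 0.18 and 0.28, and Eif2d, another such carrier, -0.13.

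The lower end of the same group was held by Eif5b and Eif1ad. Eif5b, the GTPase that joins the large subunit, had 14.5 FPKM with anti-CD40 and 18.3 FPKM with IgG, a fold of 0.790 (interval 0.747 to 0.835). Eif1ad, named for its eIF1A-like domain, had 19.6 FPKM with anti-CD40 and 27.2 FPKM with IgG, a fold of 0.721 (interval 0.664 to 0.783). Its exons overlap those of Banf1 on the other strand, which had 81.3 FPKM with anti-CD40 and 55.7 FPKM with IgG, so the overlapping gene lay on the other side. The strand setting of the counting is not given in the sources used here, and reads of such partners cannot be told apart. In all, 15 members share exon sequence with a neighbouring gene.

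The eIF2B subunits, which form the exchange factor that stress kinases block through phosphorylated eIF2, had a median of 0.03, and 4 of 5 lay below the median of all genes. Eif2b2, the beta subunit, was lowest at 21.5 FPKM with anti-CD40 against 33.1 FPKM with IgG, a fold of 0.649 (interval 0.589 to 0.716). Eif2b3 had 7.83 FPKM with anti-CD40 and 10.9 FPKM with IgG. Eif2b4 had 23.5 FPKM with anti-CD40 and 22.8 FPKM with IgG, and Eif2b5, the catalytic subunit, had 20.0 FPKM with anti-CD40 and 19.6 FPKM with IgG. The log2 ratios of both were above 0 as deposited and below it after centring or upper-quartile scaling. Eif2b1 was at the median, with 6.60 FPKM with anti-CD40 and 5.88 FPKM with IgG.

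The 14 genes of eIF3, the large scaffold on the small subunit, split evenly, with 7 above and 7 below the median of all genes and a group median of 0.12. The 7 lower genes had levels from 52.3 to 295.4 FPKM with anti-CD40, and the 7 higher genes from 2.33 to 98.8 FPKM. Eif3f, the most abundant and the lowest, had 295.4 FPKM in the anti-CD40 library, against 479.8 FPKM in the IgG library, a fold of 0.616 (interval 0.603 to 0.628). Eif3d, a subunit with cap-binding activity of its own, had 112.4 FPKM with anti-CD40 and 156.9 FPKM with IgG (a fold of 0.717, interval 0.689 to 0.746), and Eif3b, a core subunit, had 119.3 FPKM with anti-CD40 and 143.4 FPKM with IgG. Eif3g and Eif3c had log2 ratios of -0.17 and -0.16. On the higher side no subunit was far from the median: Eif3a, the largest subunit, had 18.5 FPKM with anti-CD40 and 15.5 FPKM with IgG, and Eif3e had 47.8 FPKM with anti-CD40 and 39.7 FPKM with IgG. Eif3h, Eif3j1, Eif3l and Eif3m had log2 ratios from 0.16 to 0.21. Eif3i and Eif3k, at 0.09 and 0.02, turned below 0 under centring and upper-quartile scaling. Eif3j2 had the highest ratio of the group, 2.33 FPKM with anti-CD40 against 1.70 FPKM with IgG. Its coding sequence is 100% identical over 781 bases to that of Eif3j1, which had 9.07 FPKM with anti-CD40 and 7.75 FPKM with IgG, so the split between them is uncertain. Summed over the group, eIF3 genes had 1338.1 FPKM with anti-CD40 and 1562.3 FPKM with IgG.

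Eif6, which keeps large subunits from joining too early, had 94.9 FPKM with anti-CD40 and 109.1 FPKM with IgG (a fold of 0.870, interval 0.826 to 0.916).

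The elongation factors formed the group with the highest median, 0.35, and 6 of its 7 genes at 1 FPKM or more exceeded the all-gene median. Eef1a1, the carrier of aminoacyl-tRNA and the most abundant member, had 2555 FPKM in the anti-CD40 library, against 1994 FPKM in the IgG library, a 1.28-fold difference (interval 1.27 to 1.29). It ranked 20th of all genes with anti-CD40 and 35th with IgG. Eef2, the translocase, had 459.2 FPKM with anti-CD40 and 358.9 FPKM with IgG, and Eif5a, which keeps ribosomes moving through stalling stretches, had 323.8 FPKM with anti-CD40 and 254.6 FPKM with IgG. Their folds were 1.28 and 1.27, close to that of Eef1a1. Eef1a1 has 13 pseudogene copies above 90% identity, Eif5a has 2 and Eef2 has 1.

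The exchange complex that recharges eEF1A was uneven. Eef1b2, the alpha subunit, had 340.3 FPKM with anti-CD40 and 259.9 FPKM with IgG (1.31-fold, interval 1.27 to 1.35). Eef1g, the gamma subunit, was close to the median at 281.8 FPKM with anti-CD40 and 255.3 FPKM with IgG. Eef1d, the delta subunit (chromosome 15, 75894796 to 75909784), had 245.2 FPKM in the anti-CD40 library, against 400.1 FPKM in the IgG library, a fold of 0.613 (interval 0.596 to 0.630). The order of these subunits per length thus differed, with Eef1d the highest of the 3 in the IgG library and the lowest in the anti-CD40 library. Naprt shares exon sequence with Eef1d on the same strand and had 6.15 FPKM with anti-CD40 and 7.36 FPKM with IgG, far below Eef1d. Eef1e1, a protein of the multi-tRNA synthetase complex, had 4.55 FPKM with anti-CD40 and 2.74 FPKM with IgG, 1.66-fold higher (interval 1.34 to 2.08), at about 239 fragments for anti-CD40 and 130 for IgG.

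All members together summed to 6977.3 FPKM with anti-CD40 and 6549.8 FPKM with IgG, or 1.32% of the sum over all genes with anti-CD40 and 1.20% with IgG. Eef1a1 made up 36.6% of the members' sum with anti-CD40 and 30.4% with IgG. Without Eef1a1 the sums were 4422 FPKM with anti-CD40 and 4556 FPKM with IgG, a ratio of 0.971. As a share of the sum over all genes they were 0.836% with anti-CD40 and 0.832% with IgG, so the direction without Eef1a1 turned with the scaling.

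Enzymes that modify the elongation factors had levels from 2.68 to 26.7 FPKM with anti-CD40, leaving out 1 gene below 1 FPKM. Eef2k, the kinase that inhibits eEF2, had 3.23 FPKM with anti-CD40 and 2.06 FPKM with IgG, 1.57-fold higher (interval 1.24 to 1.98). Of the methyltransferases, Eef1akmt1, the most abundant, had 26.7 FPKM with anti-CD40 and 31.2 FPKM with IgG, and Eef2kmt, which acts on eEF2, had 9.68 FPKM with anti-CD40 and 11.3 FPKM with IgG. Eef1akmt4 was lower, at 20.7 FPKM with anti-CD40 and 27.8 FPKM with IgG (a fold of 0.744, interval 0.663 to 0.833), and its overlapping neighbour Alg3 on the other strand had 15.1 FPKM with anti-CD40 and 20.3 FPKM with IgG, in nearly the same proportion. Eef1akmt2 had 2.68 FPKM with anti-CD40 and 1.92 FPKM with IgG (interval on the fold 0.858 to 2.28), and Eef1aknmt 4.37 FPKM with anti-CD40 and 3.61 FPKM with IgG.

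The 7 members below 1 FPKM in both libraries included the tissue-restricted paralogs. Eef1a2, the form of muscle and neurons, had 0.257 FPKM with anti-CD40 and 0.478 FPKM with IgG, with an interval on the fold from 0.225 to 1.16. Eif5a2 had 0.400 FPKM with anti-CD40 and 0.236 FPKM with IgG, Eef1akmt3 had 0.088 FPKM with anti-CD40 but a listed 0 with IgG, and the read-through symbol Eef1akmt4-ece2 had 0.0365 FPKM with anti-CD40 and 0.0438 FPKM with IgG. Eif4e1b, Eif4a3l1 and Eif2c5 were listed at 0 in both libraries.

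The other genes of the pathway were followed with a list of 55 regulators and partners, of which 54 reached 1 FPKM. Their median log2 ratio was 0.14, 29 lay above the median of all genes and 25 below, and 0 were 2-fold apart in either direction (0.563% of all genes were). Among the kinases that act on the factors, Mtor had 1.30 FPKM with anti-CD40 and 1.03 FPKM with IgG. The kinases of eIF4E were Mknk1, at 18.4 FPKM with anti-CD40 and 16.5 FPKM with IgG, and Mknk2, at 37.5 FPKM with anti-CD40 and 30.0 FPKM with IgG. Of the 4 eIF2 kinases, Eif2ak1 had 17.0 FPKM with anti-CD40 and 12.8 FPKM with IgG (1.33-fold, interval 1.23 to 1.44). Eif2ak2 had 4.65 FPKM with anti-CD40 and 4.49 FPKM with IgG. Eif2ak3 had 1.75 FPKM with anti-CD40 and 1.38 FPKM with IgG (interval on the fold 0.923 to 1.75). Eif2ak4 had 2.71 FPKM with anti-CD40 and 2.22 FPKM with IgG. The eIF4A inhibitor Pdcd4 had 2.66 FPKM with anti-CD40 and 2.38 FPKM with IgG (interval on the fold 0.86 to 1.46).

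The 4 highest ratios of the list were those of Tsfm, Impact, Ppp1r15a and Gfm2. The 9 mitochondrial factors, among them Tsfm and Gfm2, had a median of 0.10, with 4 above the all-gene median and 5 below, and the 9 kinases, phosphatase subunits and regulators of eIF2 had a median of 0.21, with 6 above and 3 below. Tsfm, the mitochondrial exchange factor, had 16.9 FPKM with anti-CD40 and 9.49 FPKM with IgG (1.77-fold, interval 1.5 to 2.1), and Gfm2, a mitochondrial recycling factor, had 5.38 FPKM with anti-CD40 and 3.84 FPKM with IgG. Impact, an inhibitor of the eIF2 kinase GCN2, had 7.73 FPKM with anti-CD40 and 4.46 FPKM with IgG (1.73-fold, interval 1.51 to 1.99). Ppp1r15a, the stress-induced subunit of the eIF2 phosphatase, had 64.8 FPKM with anti-CD40 and 47.7 FPKM with IgG. The lowest ratio was that of Pabpc4, a poly(A)-binding protein, with 21.9 FPKM with anti-CD40 and 37.6 FPKM with IgG (a fold of 0.581, interval 0.542 to 0.622), whereas its paralog Pabpc1 had 68.0 FPKM with anti-CD40 and 61.6 FPKM with IgG. Dhps, which starts the hypusine modification of eIF5A, had 19.2 FPKM with anti-CD40 and 29.7 FPKM with IgG, Tsc2, an inhibitor of mTORC1, 10.1 FPKM with anti-CD40 and 15.7 FPKM with IgG, and the selenocysteine factor Eefsec 5.37 FPKM with anti-CD40 and 6.99 FPKM with IgG.

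Transcript GC content moved with the log2 ratio in these libraries. Across the 61 members the Spearman correlation of the log2 ratio with the median GC content of a gene's transcripts was -0.22, and across 9453 genes it was -0.21, where genes share the same 2 libraries and are not replicates. The 32 members at or below the median GC content of all genes, 51.0%, had a median log2 ratio of 0.19, and the 29 above it 0.02. Over all genes, those at or below 51.0% had a median of 0.16 and those above it 0.07. With that trend removed, the log2 ratio of Eif4e was 1.07, and 30 members lay above the median of all genes and 31 below.

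**Figure D5:**
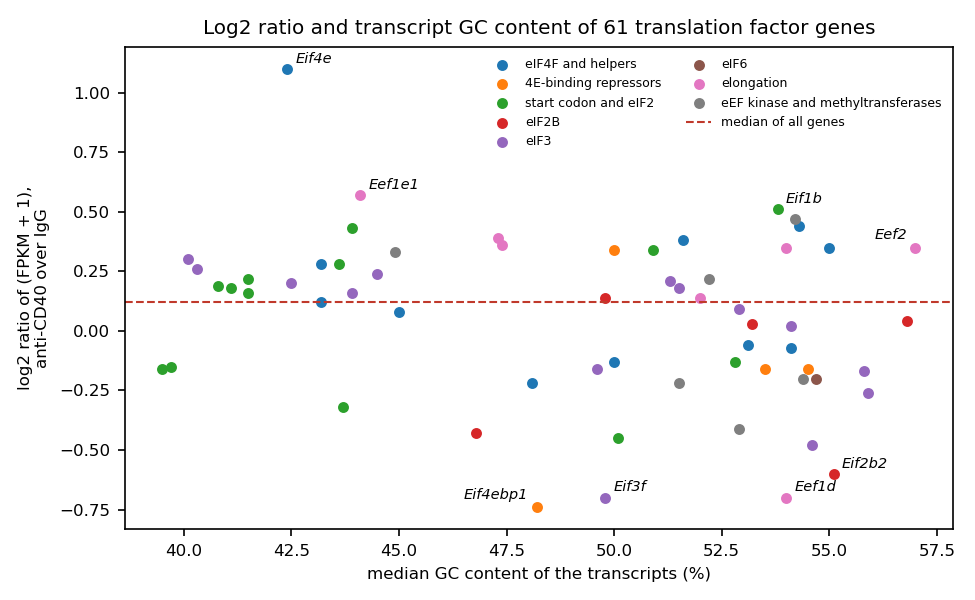
Log2 ratio of (FPKM + 1), anti-CD40 over IgG, against the median GC content in percent of each gene's transcripts for the 61 members, coloured by role; the dashed line is the median of all genes (0.12). Eif4e lies among the genes of low GC content, and Eif4ebp1, Eif3f, Eef1d and Eif2b2 hold the low end at GC contents from 48.2% to 55.1%.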

How the data were processed

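RNA-seq of 2 libraries was used, 1 with anti-CD40 and 1 with IgG. Per the submitters' processing notes, HISAT2 2.1.0, StringTie and the build mm10 were used. The annotation used, the strand setting and any filter on genes were not given in the sources used here. Values deposited by the authors, 1 for each gene in each library, were taken as FPKM. The header names no unit, and FPKM was inferred from StringTie and from sums that differ (529103.5 with anti-CD40 and 547362.0 with IgG), which TPM would not. Columns were matched by name, and 0 were unused.

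The members, role groups, pathway list and settings were chosen with earlier results of these data known. Both libraries enter every value; genes count at 1 FPKM or more in either. Named genes were Eif4e, the 5 highest and 5 lowest ratios, each role group's most abundant, highest and lowest members, paralogs, and the 4 highest and 4 lowest of the pathway list with Mtor, Mknk1, Mknk2, Eif2ak1 to Eif2ak4, Pdcd4, Pabpc1 and Myc; other members were named after their values were seen.

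Depth came from genes with 1 transcript in each of GENCODE and RefSeq and the same ends in both. Their FPKM times length should be a multiple of a step, which was taken as 1 aligned base. Within 0.1 steps, 80.4% of 56 low genes (anti-CD40) and 87.0% of 46 (IgG) were whole. Fragments were FPKM times 20.5 (anti-CD40) or 18.6 (IgG) per FPKM and kilobase of median transcript length in GENCODE release 21, taking 300 bases per fragment. The intervals rest on these assumptions. Copies were found with blastn 2.17.0 at 90% identity over at least 50% of the coding length. Coordinates and promoters are from RefSeq's GRCm38.p6. Alternatives were other pseudocounts, filters and scalings, and removal of lowess trends (span 0.3) on length and GC content. Python 3.11.15, pandas 2.3.3, scipy 1.17.1 and statsmodels 0.14.6 were used.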

Additional observations from a re-analysis of the deposited data

How the results depend on the processing

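Of 10 alternative settings, 3 ended the 2-fold call of Eif4e and left 0 members at 2-fold. Its log2 ratio was 0.804 with a pseudocount of 5, 0.982 after centring on the median of all genes and 0.999 after upper-quartile scaling, and at most 1.21 (pseudocount of 0.1) elsewhere. The same 3 settings moved the median of the pathway list to 0.069, 0.016 and 0.036, against 0.14. The median of all genes moved alongside, to 0.07, 0.0 and 0.03, against 0.12. The median of the members ran from 0.02 to 0.19, and that of all genes from 0.0 to 0.17. The members above and below the median of all genes ran from 25 and 29 (filter of 5 FPKM) to 37 and 28 (no filter). Eif2b4, Eif2b5, Eif3i, Eif3k and Eif4e3 changed sign under centring and under upper-quartile scaling. Eif4a2, at the median of all genes, fell marginally below 0 after centring and had 0.01 after upper-quartile scaling. Of all genes, 24 reached 2-fold on the higher and 30 on the lower side as reported. These counts were 88 and 75 with a pseudocount of 0.1, 4 and 10 with one of 5, 14 and 19 with the filter of 5, 13 and 54 after centring, 16 and 48 after upper-quartile scaling, 61 and 41 with sums of 1000000, 30 and 24 with equal sums, 32 and 21 without the length trend and 25 and 21 without the GC trend. Depth limits the low members: Eef1akmt2, at about 46 fragments for anti-CD40 and 30 for IgG, could lie on either side. With 1 library per group no replicate could be left out. No paired analysis was possible because each group has 1 library.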
